A study of Mus musculus with 12 samples.

Results

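The 7 genes described here encode the mouse inhibitors of cyclin-dependent kinases (CDKs). Cdkn1a, Cdkn1b and Cdkn1c make the CIP/KIP proteins p21, p27 and p57. Cdkn2a, Cdkn2b, Cdkn2c and Cdkn2d make the INK4 proteins p16, p15, p18 and p19, and Cdkn2a also makes the unrelated protein Arf from another reading frame. They were taken by symbol, and all 7 were found among the 23973 genes of the IL7 table and the 24015 genes of the LPS table. RNA was sequenced from primary mouse B cells of WT or T58A genotype in 12 libraries, 3 per group. One pair of groups, WT and T58A, was bone marrow B cells cultured with interleukin 7 (IL7). The other pair, also WT and T58A, was spleen B cells cultured with the bacterial product lipopolysaccharide (LPS). All 4 groups were in culture with serum and their stimulus for 48 h before RNA extraction, so no group was unstimulated. T58A is a replacement of threonine by alanine in MYC, at a residue whose phosphorylation is known to mark MYC for destruction. The series describes the mice as littermates. Their age, the number of mutant alleles and the animal behind each library are not given in the sources used here, so the p-values measure only the spread between these libraries, which may be technical in part.

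CDK inhibitors hold cells in the first gap phase of the cell cycle. INK4 proteins bind Cdk4 and Cdk6 and keep them from their D-type cyclins, while CIP/KIP proteins bind complexes of cyclins with CDKs, above all those of Cdk2. With the kinases held back, the retinoblastoma protein stays bound to E2F factors and genes for DNA replication stay off. In B cells p27 is known as a brake on entry into the cycle from rest, p18 for its part in the step to plasma cells, and Arf as a barrier to transformation by MYC. MYC itself is known to repress several of these genes.

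Values are normalised reads, that is, read counts divided by a size factor of each library, and the IL7 and LPS tables were scaled separately. Libraries held 8486753 to 10201113 reads assigned to genes in IL7 and 5110746 to 9332410 in LPS. The limit that a count of 0 allows, 3 reads, was 2.15 to 4.12 normalised reads, which covers counting error only. The 5 B lineage markers were detected in every group, with summed levels of 25686 to 46272 normalised reads. The 5 pre-B markers summed to 15066 to 21821 normalised reads in IL7 and to 14.7 to 58.8 in LPS, as the labels of marrow and spleen have it. The 5 mature B cell markers summed to 26971 to 31958 normalised reads in LPS. By Xist and Y-linked transcripts, WT replicates 1 and 2 were female and WT replicate 3 and every T58A library male, in both cultures, and the female IL7 WT replicate 2 also held 168 normalised Y-linked reads. Pair 3 is therefore the only IL7 pair of the same sex. 2 LPS columns carry the same T58A heading, so their replicate numbers are unknown, and they are called the first and second unnumbered T58A libraries.

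In IL7 cultures the transcripts of Cdkn1b and Cdkn2c were lower in T58A than in WT, by 1.52-fold and 1.30-fold. In limma both passed with the pair as a block (adjusted p = 0.00555 and 0.0275) but not without it (0.154 and 0.177). Neither passed with sex as a covariate (limma adjusted p = 0.642 and 0.651), and the Cdkn2c call was lost without pair 2 or pair 3. Cdkn2d and Cdkn2b lay lower in all 3 pairs as well, Cdkn2d without passing in any of these fits and Cdkn2b with too few reads to be tested. Cdkn1a and Cdkn2a overlapped between the genotypes, and so did Cdkn1c. In LPS cultures the genotypes overlapped for all 7 genes. 6 of the 7 genes passed the filter on low counts in each culture, all but Cdkn2b in IL7 and all but Cdkn1c in LPS.

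**Figure D1:**
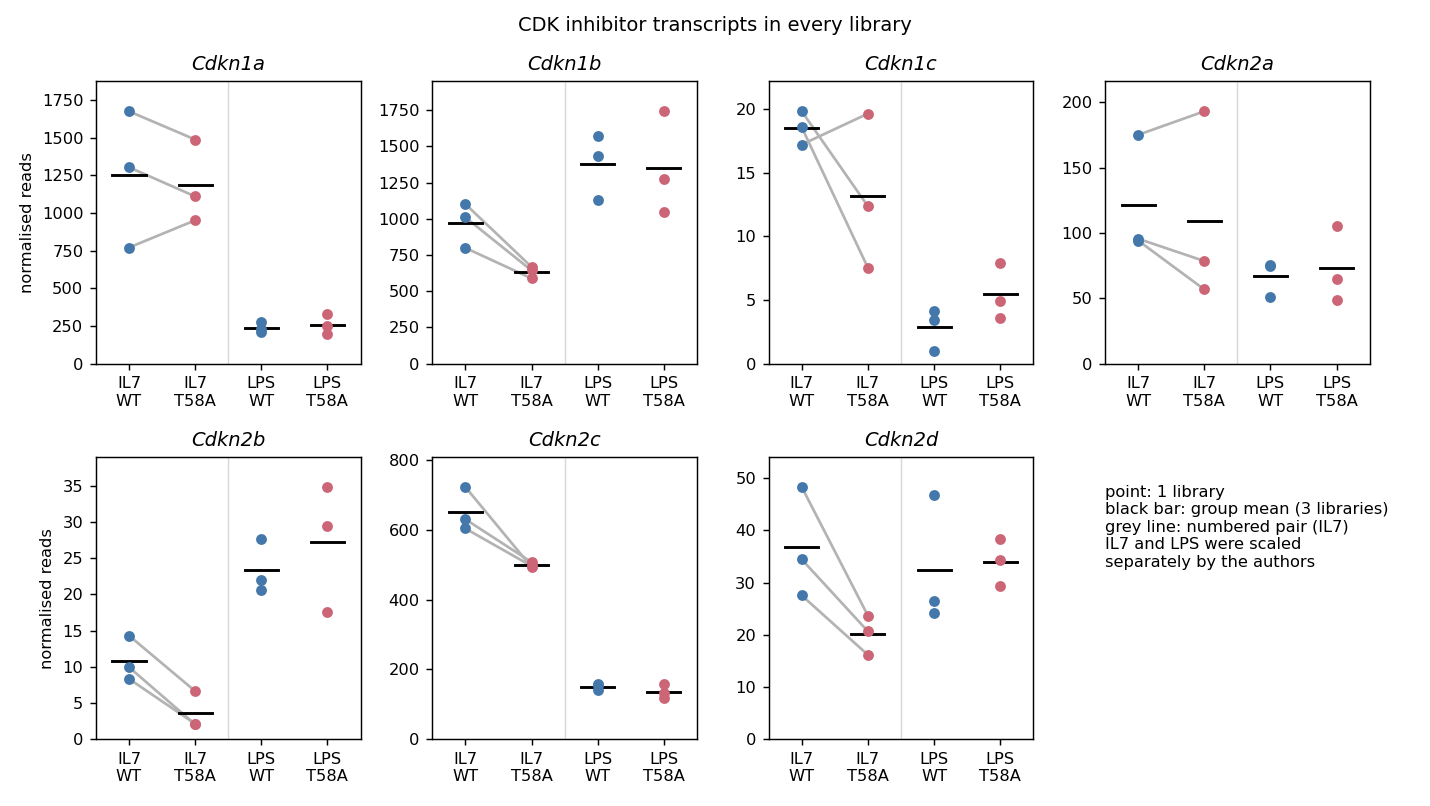
Normalised reads of the 7 CDK inhibitor genes (linear axes from 0, a scale for each gene), with 1 point per library, black bars for the means of 3 libraries and grey lines joining the numbered IL7 pairs. The lines of Cdkn1b, Cdkn2b, Cdkn2c and Cdkn2d all run downward from WT to T58A, while those of Cdkn1a, Cdkn1c and Cdkn2a run in both directions.

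Cdkn1b, at chr6:134920401-134925513 on the plus strand of GRCm38, makes p27, which binds and blocks cyclin-bound Cdk2. Its IL7 values were 1102, 1010.0 and 799 normalised reads in WT replicates 1 to 3 and 668, 644 and 589 in the T58A replicates. Every T58A library lay below every WT library, and T58A was 39.4%, 36.2% and 26.3% below WT in pairs 1 to 3. The log2 difference was -0.60 ± 0.13 (SE, n = 3 per group) with a limma adjusted p of 0.154, where adjustment is Benjamini-Hochberg over the 11604 genes tested. With the pair as a block the standard error was 0.08, the 95% interval was -0.79 to -0.42 and the limma adjusted p was 0.00555. With pair 1, 2 or 3 left out, the blocked log2 difference was -0.54, -0.58 and -0.68 (limma adjusted p = 0.000348, 0.0185 and 0.00643). These fits hold few libraries and lean on the spread of other genes, so their p-values can fall below that of the full fit. In the authors' deposited table the log2 change was -0.55, with an adjusted p of 4.66e-05, where 4.97% of 10742 genes with an adjusted p were lower and 4.67% higher at under 0.05. The same-sex pair 3 gave a log2 difference of -0.44, and a limma fit with sex as a covariate and no pair term gave -0.34 (adjusted p = 0.642).

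Some marker lists differed in 1 direction between the genotypes in every IL7 pair, and others did not. The summed level of 5 mature B cell markers in IL7 was 12709, 7950 and 3985 normalised reads in WT replicates 1 to 3 and 7349, 4482 and 2686 in T58A, with none of the 5 at 0. It was lower in T58A in every pair, and within each genotype the libraries stood in the same order as for Cdkn1b and Cdkn2d. The B lineage sum was also lower in T58A in every pair, with 46272, 32433 and 30113 normalised reads in WT and 31168, 28027 and 25686 in T58A, again in the order of Cdkn1b. The 5 pre-B markers were at 15946, 17009 and 21821 in WT and 15614, 15066 and 17833 in T58A, lower in every pair but in another order. The 5 dendritic markers were at 57.5, 163 and 50.6 in WT and 21.5, 68.2 and 27.6 in T58A. Zbtb46 was at 0 in all IL7 T58A libraries and also in IL7 WT replicates 1 and 3. The 7 T and NK markers found were higher in T58A in every pair, at 420, 738 and 968 in WT and 775, 1122 and 997 in T58A, nearly all of it Thy1, with the T cell receptor gene Cd3e at 0 to 4.30 in every IL7 library. The 5 erythroid markers were also higher, from 1316, 1527 and 2421 normalised reads in WT to 2300.2, 2098 and 2866 in T58A, nearly all of it Car2, while the globin genes Hba-a1 and Hbb-bs were at 0 in every IL7 library. The 5 plasmablast markers found moved in both directions across pairs, at 5803, 6564 and 5464 in WT and 5994, 5951 and 6383 in T58A. So did the 11 myeloid markers found, at 1144, 569 and 2074 in WT and 723, 870 and 371 in T58A. Some members of the lower lists went up, among them Pax5 in pairs 2 and 3 and Igll1, Dntt, Fcer2a and Cr2 in pair 1. The dendritic marker Xcr1 was higher in T58A in every pair, at 0.93, 11.8 and 9.91 in WT and 1.08, 20.7 and 15.2 in T58A. Its pair 1 values were under the limit that a count of 0 allows. In bulk RNA, fewer cells of a type and less RNA per cell cannot be told apart, and the part of these lists in the Cdkn1b, Cdkn2c and Cdkn2d values was not tested.

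The 250 bases before the annotated Cdkn1b start are shown because this was the member with the smallest p. They are from RefSeq (GRCm38.p6), plus strand, chr6:134920151-134920400, with CCAAT boxes (CCAAT, or ATTGG on the other strand) in capitals.
Cdkn1b promoter: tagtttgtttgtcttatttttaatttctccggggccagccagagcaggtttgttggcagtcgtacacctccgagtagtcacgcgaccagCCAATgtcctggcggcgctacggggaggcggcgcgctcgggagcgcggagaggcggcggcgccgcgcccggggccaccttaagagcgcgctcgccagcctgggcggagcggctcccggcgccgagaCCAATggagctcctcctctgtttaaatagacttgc
This stretch holds 2 CCAAT boxes, a motif picked after the sequence had been read. Over windows of 300 bases, which reach 50 bases past the start, 37.4% of 32851 mouse promoters held at least 1, and the Cdkn1b window held 3. Its GC content was 62%, against a median of 52.7% over all windows. The MYC E-box CACGTG, the FOXO motif GTAAACA and the E2F motif TTGGCGC, searched on both strands, were not in the Cdkn1b window. They were present in 7.15%, 3.65% and 2.45% of all windows.

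Cdkn1a, at chr17:29090976-29100727 on the plus strand, makes p21, a classic p53 target. Its IL7 values were 771, 1304 and 1676 normalised reads in WT and 952, 1111 and 1489 in T58A. The genotypes overlapped, and in both of them replicate 1 was lowest and replicate 3 highest. The log2 difference was -0.03 ± 0.27 (SE, n = 3 per group), with a limma adjusted p of 0.961. With the pair as a block the 95% interval was -0.27 to 0.21 on the log2 scale, and the limma adjusted p was 0.866. With sex as a covariate and no pair term the value was -0.53 (limma adjusted p = 0.738). On the opposite strand the gene AC167363.2 overlaps 273 exonic bases of Cdkn1a, and reads of the 2 cannot be told apart because the library kit does not mark strand.

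Cdkn1c, at chr7:143458339-143461050 on the minus strand, makes p57 and is an imprinted gene. Its IL7 values were 18.6, 17.2 and 19.8 normalised reads in WT and 7.53, 19.6 and 12.4 in T58A. T58A replicate 2 lay inside the WT range and the other two below it. The log2 difference was -0.55 ± 0.39 (SE, n = 3 per group), with limma adjusted p-values of 0.487 without and 0.369 with the pair as a block. The value was -0.23 without T58A replicate 1, and in the blocked fit -0.23 without pair 1 and -0.92 without pair 2. The gene Gm44732 on the opposite strand overlaps 625 exonic bases of Cdkn1c, so that these low counts may include its reads.

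Cdkn2c, at chr4:109660876-109667189 on the minus strand, makes p18, which binds Cdk6 in particular. Its IL7 values were 603, 722 and 630 normalised reads in WT and 496, 493 and 507 in T58A. All 3 T58A libraries lay below all WT libraries and close to each other. The log2 difference was -0.38 ± 0.10 (SE, n = 3 per group) with a limma adjusted p of 0.177. With the pair as a block the standard error was 0.09, the 95% interval was -0.58 to -0.18 and the limma adjusted p was 0.0275. That call was lost without pair 2 (log2 difference -0.30, adjusted p = 0.144) and without pair 3 (-0.42, adjusted p = 0.0634). The authors' deposited table gives a log2 change of -0.34 with an adjusted p of 0.0498. Pair 3 alone gave -0.31, and with sex as a covariate and no pair term limma gave -0.34 (adjusted p = 0.651).

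Cdkn2c has 2 annotated starts 1384 bases apart, and a gene count joins their transcripts. The window of the downstream start was the only one among the 6 members with a promoter entry to hold CACGTG, from base 35 on, counting the start as base 1. It is shown here in capitals within 30 bases of RefSeq (GRCm38.p6), minus strand, chr4:109665323-109665352.
Cdkn2c E-box: ttttgctgaataatCACGTGtgaatcgagg
GC content was 44% in the downstream window and 73.3% in the upstream one. A match of letters describes the sequence, and binding at either gene was not analysed here.

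Cdkn2d, at chr9:21288410-21291407 on the minus strand, makes the INK4 protein p19, which is distinct from Arf. Its IL7 values were 48.3, 34.4 and 27.5 normalised reads in WT and 23.7, 20.7 and 16.2 in T58A. No T58A library reached the lowest WT library. The limma log2 difference was the largest of the tested members, -0.81 ± 0.31 (SE, n = 3 per group). Its limma adjusted p was 0.254, or 0.0765 with the pair as a block. It was not the largest in the authors' deposited table, which gives -0.30 (adjusted p = 0.351), smaller in size than for Cdkn1b and Cdkn2c. The blocked 95% interval ran from -1.41 to -0.21 on the log2 scale. With sex as a covariate and no pair term the value was -0.45 (limma adjusted p = 0.831), against -0.73 in pair 3.

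Cdkn2b, at chr4:89306299-89311039 on the minus strand next to Cdkn2a, makes p15, which TGF-beta is known to induce. It had 9, 11 and 13 reads in the IL7 WT libraries and 2, 2 and 7 in the T58A libraries. The T58A libraries lay below the WT libraries, and the first and second were under the limit that a count of 0 allows. Over the summed reads, 33 against 11, the depth-corrected ratio of T58A to WT was 0.343, with an exact 95% interval of 0.157 to 0.696 that covers counting error only. The gene did not pass the filter and has no test across libraries.

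Cdkn2a, at chr4:89274471-89294653 on the minus strand, has starts for p16 and Arf 12427 bases apart, and its count joins both. Its IL7 values were 95.6, 94.2 and 175 normalised reads in WT and 78.5, 56.8 and 193 in T58A. Replicate 3 was high in both genotypes, and the genotypes overlapped. The log2 difference was -0.29 ± 0.44 (SE, n = 3 per group), with limma adjusted p-values of 0.761 without and 0.337 with the pair as a block. Its sign turned without WT replicate 3 and without T58A replicate 2 (up to 0.08), and with sex as a covariate the value was -0.87 (limma adjusted p = 0.761).

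Of the 6 members tested in IL7, 2 fell in T58A with the pair as a block and 0 rose, against 6.31% lower and 6.41% higher calls over all 11604 genes. Without the block limma called 0 genes in either direction at an adjusted p under 0.05, and so did edgeR. At an unadjusted p under 0.05 limma then passed 1960 genes, or 16.9%, with Cdkn1b, Cdkn2c and Cdkn2d among them. DESeq2 without the block called 309 genes at an adjusted p under 0.05, 1.47% higher and 1.19% lower. Cdkn1b was among the lower ones (DESeq2 adjusted p = 0.00425). Of all 7 members 4 had every T58A library below every WT library, against 10.8% of tested genes. They were Cdkn1b, Cdkn2c, Cdkn2d and the untested Cdkn2b. The same 4 were lower in every pair, as were 26.0% of tested genes.

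**Figure D2:**
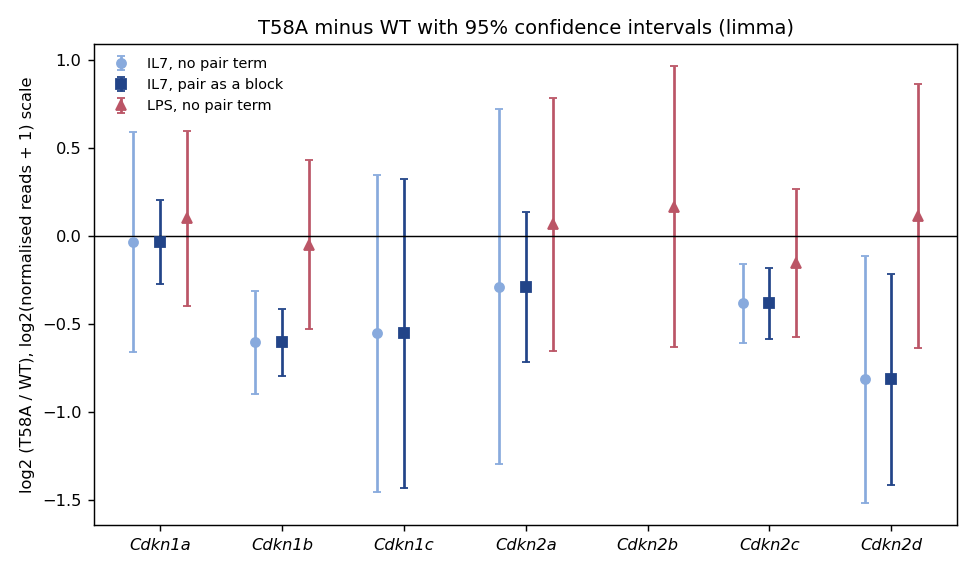
Log2 difference of T58A from WT for each CDK inhibitor gene, with limma 95% confidence intervals, in IL7 without and with the pair as a block and in LPS without it (Cdkn2b in IL7 and Cdkn1c in LPS were not tested). The blocked IL7 intervals of Cdkn1b, Cdkn2c and Cdkn2d lie below 0, and every LPS interval spans 0.

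In LPS cultures the CIP/KIP genes gave no difference past the test. Cdkn1b was at 1434, 1574 and 1132 normalised reads in WT and at 1275, 1742 and 1044 in the first unnumbered, the second unnumbered and the third T58A library. T58A held both the highest and the lowest library, and the log2 difference was -0.05 ± 0.21 (SE, n = 3 per group, limma adjusted p = 1.00), with a 95% interval of -0.53 to 0.43. Cdkn1a, p21, was at 279, 227 and 208 normalised reads in WT and 331, 249 and 198 in T58A, a log2 difference of 0.10 ± 0.22 (SE). Cdkn1c had 3, 4 and 1 reads in WT and 3, 11 and 5 in T58A, at or near the limit that a count of 0 allows in most libraries. The ratio of its summed reads, T58A to WT, was 2.14, and the exact 95% interval of 0.896 to 5.66 spanned 1.

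Among the INK4 genes in LPS, Cdkn2c was at 140.1, 157 and 154 normalised reads in WT and 119, 133 and 157 in T58A. The third T58A library matched the highest WT library, and the log2 difference was -0.15 ± 0.19 (SE, n = 3 per group). The 5 plasmablast markers found in the table varied widely in LPS, from 31938 to 84330 normalised reads in WT and from 19399 to 57062 in T58A, and their part in the Cdkn2c values was not tested. Cdkn2b was at 21.98, 27.7 and 20.6 normalised reads in WT and 34.8, 29.4 and 17.6 in T58A, so T58A again held both extremes. Cdkn2a was at 75.6, 51.0 and 74.7 in WT and at 105.6, 48.7 and 64.5 in T58A. Cdkn2d was at 46.7, 24.2 and 26.5 in WT and at 38.4, 29.4 and 34.2 in T58A. Their log2 differences were 0.17 ± 0.35, 0.07 ± 0.32 and 0.12 ± 0.33 (SE), all with a limma adjusted p of 1.00. For all 7 genes the LPS genotypes overlapped, against 3.30% of 11291 tested genes with all T58A libraries below WT and 3.10% above. limma called 0 genes in LPS, with 284 (2.52%) at an unadjusted p under 0.05, edgeR 0 and DESeq2 1 (0.00886%).

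The IL7 and LPS effects were set against each other in 1 limma fit over the 10767 genes tested in both cultures. The Cdkn1b difference, LPS effect minus IL7 effect, was 0.56 ± 0.26 on the log2 scale (SE, unadjusted p = 0.0545, adjusted p = 0.996). With pairs as blocks and the first unnumbered T58A library assigned to WT replicate 1, the limma adjusted p was 0.0326, where 3.19% of genes passed in that direction. With the second unnumbered library there instead, it was 0.504 and 0 genes passed. The labels do not settle the assignment. In the check of pairing, deviations from the group means correlated at 0.34, 0.66 and 0.54 in the 3 LPS pairs under the first assignment and at -0.23, -0.22 and 0.54 under the second. The check used the same values as the fit, so it is not separate evidence for the assignment that passed. For the other 4 members tested in both cultures the values were 0.14 for Cdkn1a, 0.35 for Cdkn2a, 0.23 for Cdkn2c and 0.93 for Cdkn2d, and the lowest limma adjusted p among them over these versions of the fit was 0.17, for Cdkn2d.

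Per transcript length, the inhibitors covered a wide range of levels, and the order was not the same in the 2 cultures. In IL7 WT libraries Cdkn1a stood highest with a mean of 37.9 ± 13.6 RPKM (reads per kilobase of exon, scaled to library size; SD, n = 3). Cdkn2c followed at 26.1 ± 2.59 and Cdkn1b at 23.0 ± 3.77, both overlapping Cdkn1a. Cdkn2a was at 11.2 ± 4.18 RPKM, and Cdkn2d, Cdkn1c and Cdkn2b at 2.52, 0.979 and 0.842. In LPS WT libraries Cdkn1b stood alone at the top with 44.2 ± 7.79 (SD, n = 3) and no overlap with the next gene. Cdkn1a at 9.75, Cdkn2a at 8.31 and Cdkn2c at 8.17 RPKM overlapped one another. T58A libraries had the same order as WT in each culture. Cdkn1b made up 22.4% of the summed level of the 7 genes in IL7 WT, 18.03% in IL7 T58A, 58.1% in LPS WT and 56.5% in LPS T58A. For Cdkn1a these shares were 37.0%, 43.1%, 12.8% and 13.8%.

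Set side by side as RPM, reads scaled to library size alone, the cultures did not overlap for 4 of the 7 genes. Cdkn1a averaged 130 RPM over the 6 IL7 libraries and 36.4 over the 6 LPS libraries, and Cdkn2c averaged 61.5 and 21.02. The opposite order held for Cdkn1b, with 85.9 RPM in IL7 and 201 in LPS, and for Cdkn2b, with 0.776 and 3.72. Cdkn2a, Cdkn2d and Cdkn1c overlapped between cultures. Tissue of origin, stage, stimulus and scaling all differ between the cultures and cannot be told apart, so no test was made. Across the 4 groups the order of Cdkn1b was LPS WT and LPS T58A, which overlapped, then IL7 WT, then IL7 T58A, with no overlap between LPS T58A and IL7 WT or between the IL7 groups. Cdkn2c ran from IL7 WT to IL7 T58A to LPS WT with no overlap, and LPS T58A overlapped LPS WT.

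**Figure D3:**
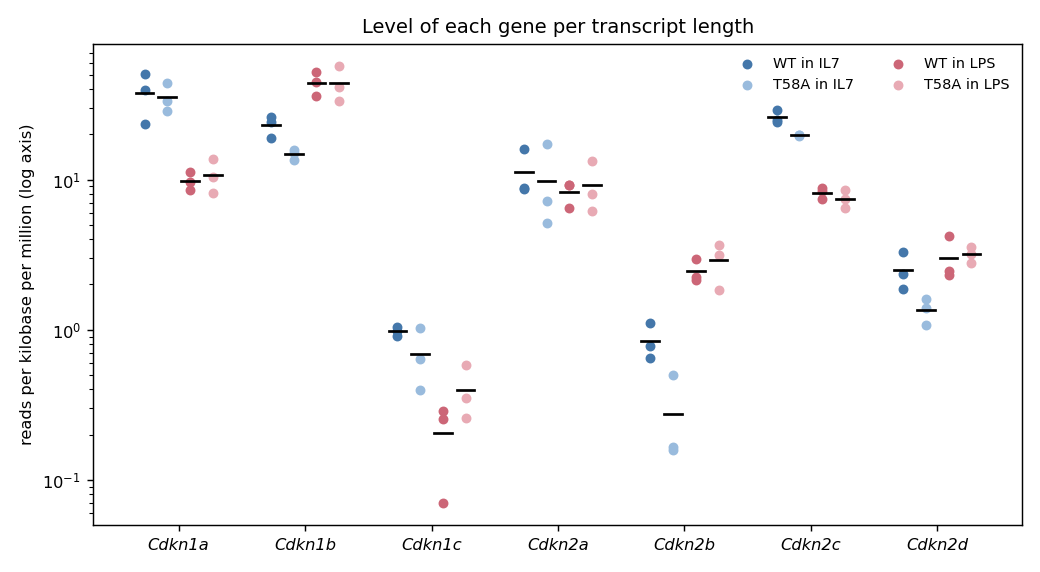
RPKM of each CDK inhibitor gene (log axis), with 1 point per library and black bars for means of 3 libraries in each of the 4 groups. Cdkn1a and Cdkn2c sit higher in IL7 than in LPS, and Cdkn1b and Cdkn2b higher in LPS.

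The direct partners of the inhibitors are the cyclins and CDKs they bind and the retinoblastoma proteins those kinases act on. In IL7, 3 of the 12 partners tested rose in T58A with the pair as a block and 0 fell, with a list median of 0.02 on the log2 scale against -0.01 over all genes. Over all 11604 genes tested, 6.41% rose and 6.31% fell with the block. Cdk6, a target of the INK4 proteins, was at 140.1, 293 and 269 normalised reads in WT and at 463, 442 and 449 in T58A. Its T58A libraries lay close together above all WT libraries, with a log2 difference of 1.01 ± 0.19 (SE, n = 3 per group, blocked limma adjusted p = 0.0154, or 0.175 without the block). Without pair 1 the Cdk6 difference was 0.66. Cdk4, the other INK4 target, rose by 0.26 ± 0.06 (blocked limma adjusted p = 0.0324) and cyclin D2, from Ccnd2, by 0.33 ± 0.08 (0.0272). With sex as a covariate and no pair term the Cdk4 value was 0.11 (limma adjusted p = 0.8498). The Cdk4 call was lost without pair 2 or pair 3 (adjusted p of 0.189 and 0.0738) and the Ccnd2 call without pair 3 (0.117). Rb1, the retinoblastoma gene, gave -0.40 ± 0.12 with a blocked limma adjusted p of 0.0674. Its blocked limma adjusted p was under 0.05 without pair 1 (-0.42, 0.0145) and without pair 3 (-0.57, 0.0240). Such fits on fewer pairs lean on the spread of other genes. Rb1 was at -0.21 without pair 2 (0.293) and at -0.27 with sex as a covariate. Without the block, 0 partners passed in limma, and in DESeq2 only Cdk6 (adjusted p = 0.00914). In LPS 0 partners passed in limma or DESeq2.

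Among 23 genes listed as activators of inhibitor genes, 6 fell and 0 rose in IL7 with the block (6.31% and 6.41% over all genes). The list median was -0.09 on the log2 scale. One of the 6, Bcl6, is better known as a repressor, of Cdkn1a among others, and is named here after its value was seen (-0.83, blocked limma adjusted p = 0.0152), so it does not act as the list's name says. Foxo1, a factor known to switch on Cdkn1b, was at 2659, 1970 and 2314 normalised reads in WT and at 1717, 1416 and 1895 in T58A. The T58A libraries lay below the WT libraries, with a log2 difference of -0.47 ± 0.08 (SE, n = 3 per group, blocked limma adjusted p = 0.0101). Klf2, a factor of resting lymphocytes, gave -0.84 ± 0.11 (blocked limma adjusted p = 0.00468), but -0.08 with sex as a covariate and no pair term. Klf2 values in WT replicates 1 to 3 were 1562, 1003 and 568 normalised reads, the order of the mature B cell markers.

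Among 26 genes listed as repressors of inhibitor genes, 2 rose and 1 fell in IL7 with the block (6.41% and 6.31% over all genes). The median was 0.01. Dnmt1, the maintenance DNA methyltransferase, rose by 0.36 ± 0.07 on the log2 scale (SE, blocked limma adjusted p = 0.0131), and Myc was the other that rose. Myc gave 0.46 with the block (limma adjusted p = 0.00791) and 0.06 with sex as a covariate and no pair term. Id2, an inhibitor of E proteins, fell by 0.87 ± 0.19 on the log2 scale (blocked limma adjusted p = 0.0239), a call lost without any 1 of the 3 pairs. Of 19 genes listed under turnover of the inhibitor proteins, most of them ubiquitin ligases and cofactors, 4 rose and 0 fell. They included Ddb1, an adaptor of a ligase for p21 (0.37 ± 0.06, blocked limma adjusted p = 0.0102), and Huwe1 (0.43 ± 0.08, 0.0131). Huwe1 is a ligase that Arf binds, and its place in the list does not mean that it degrades a CDK inhibitor.

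Downstream, 2 of 15 genes of the E2F family and its partners rose in IL7 with the block and 0 fell. E2f3, an activating member, gave 0.29 ± 0.08 (SE, log2 scale, blocked limma adjusted p = 0.0451) and E2f4, a repressive member, 0.25 ± 0.07 (0.0431). The E2f3 call was lost without any 1 of the 3 pairs and the E2f4 call without pair 2 or pair 3. With sex as a covariate and no pair term E2f3 was at -0.03 and E2f4 at 0.14. Of 19 proliferation markers 3 rose and 0 fell, of 10 genes of the Arf and Mdm2 axis 1 rose, and of 21 p53 targets 1 rose and 3 fell. Of 23 other antiproliferative genes 6 fell and 0 rose, with a median of -0.24. In the imprinted stretch around Cdkn1c 1 of 9 rose and 1 fell. Over all genes tested, 6.41% rose and 6.31% fell with the block, and the lists were not tested against these shares. The lists share genes, so their counts are not separate results. Huwe1 was counted under turnover and under the Arf and Mdm2 axis. Among the other antiproliferative genes, Btg2 was also counted as a p53 target and Klf2 as an activator. In limma 0 genes of any of these lists passed in LPS, or in IL7 without the block. DESeq2 without the block called 3 of 168 list genes higher and 3 lower in IL7, against 1.47% and 1.19% of all genes. These were Btg2, Cdk6, Ddb1, Egr1, H19 and Hbp1, named because they are all that passed. In LPS DESeq2 passed 0 list genes.

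**Figure D4:**
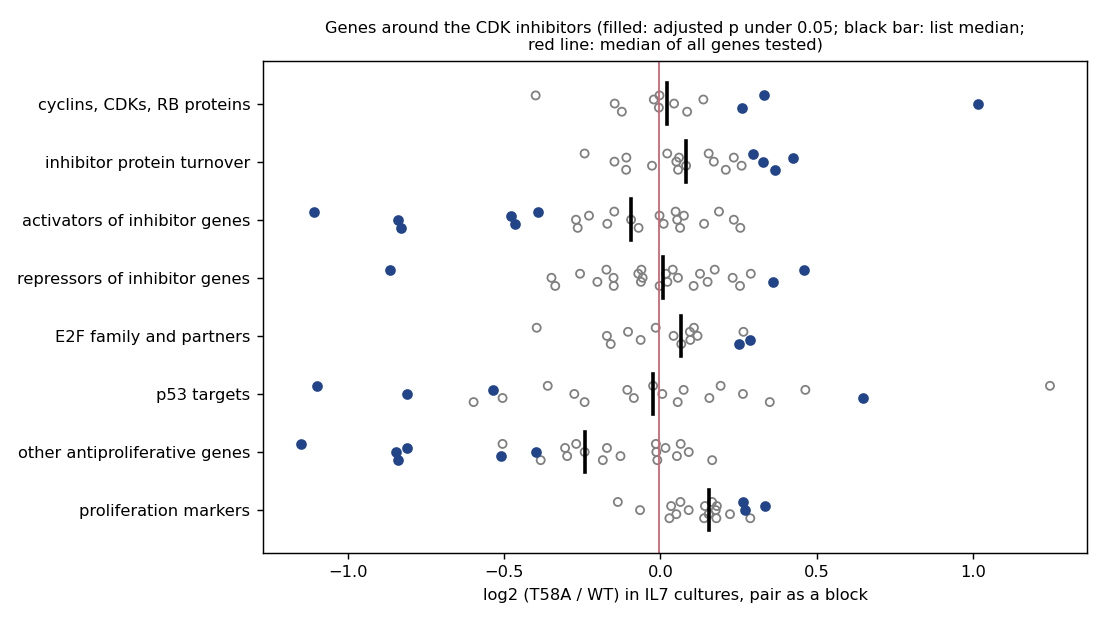
Log2 difference of T58A from WT in IL7 with the pair as a block for genes of 8 lists around the CDK inhibitors, with 1 circle per gene, filled where the limma adjusted p was under 0.05, black bars for list medians and a red line for the median of all genes. Cdk6 stands at 1.01 among the cyclins, CDKs and retinoblastoma proteins, and the filled circles of the list of activators, which holds Bcl6, all lie below 0.

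Likeness of pattern was taken as Pearson's r of log2 values over the 12 libraries after each culture's mean was removed, a description that includes the genotype difference and whatever depth and scaling the libraries share. Nearest to Cdkn1b among 10767 genes were Iffo1 (r = 0.96), Jak2 and Pou6f1 (both 0.95). Nearest to Cdkn2c were Tap1 (0.93), Qsox1 and Cep120 (both 0.90), to Cdkn2d Ist1 (0.95), and to Cdkn1a Pkn2 (0.95). Nearest to Cdkn2a was Serpinf1 (0.88). Between members, r was 0.64 for Cdkn1a with Cdkn2a, 0.60 for Cdkn1b with Cdkn2d, 0.42 for Cdkn1b with Cdkn2c and -0.12 for Cdkn1a with Cdkn1b.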

How the data were processed

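RNA was extracted with Trizol and libraries were made with the TruSeq RNA Sample Prep v2 kit, per the labels' protocols. The submitters' processing notes name bcl2fastq 1.8.4, TopHat2 2.1.0, HTSeq 0.6.1, DESeq2 (version not given) and the mm10 genome. For each culture the authors deposited a signal per gene and library, together with their own log2 fold change, p-value and adjusted p-value per gene. In every deposited signal column the values were whole multiples of 1 step (100% of values within 0.001), so the signal is a count scaled by 1 size factor per library and the reads could be recovered. All per-sample columns were used.

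Tests were limma-trend (limma 3.58.1, R 4.3.3) on log2(normalised reads + 1), two-sided, fitted over all genes passing edgeR's filterByExpr on the recovered reads (minimum count 10, total 15), with Benjamini-Hochberg adjustment at 0.05. Fold changes are on that scale, which understates the change of low genes. edgeR 4.0.16 and DESeq2 1.42.0 on the recovered reads, the pair as a block, TMM scaling, other pseudocounts, no filter, sex as a covariate and leaving out each library or pair were alternatives. The fits were tested on simulated data. Titles number the pairs. In IL7, same-numbered libraries deviated together from their group means (r = 0.41, 0.15 and 0.40), so blocked values are given. Other combinations gave -0.36 to -0.05, but deviations within a group sum to 0, so these values are not independent of the first. The check used the same data as the tests. Positions and lengths came from GENCODE M21, GRCm38, for 22709 of 24015 symbols, and promoters from RefSeq (6 of 7 members, not Cdkn1c). The members and lists were chosen with earlier results of these data known. Genes to be named were, per list, the 2 of lowest p on each side, and any direct partner. Not all of these are reported here.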

Additional observations from a re-analysis of the deposited data

Results flagged for a closer look

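Cdkn1b was singled out because its T58A effect differed between the IL7 and LPS cultures in 1 version of the test of that difference. The value, LPS effect minus IL7 effect, was 0.56 on the log2 scale. It passed with pairs as blocks and the first unnumbered T58A library placed with WT replicate 1 (limma adjusted p = 0.0326). It did not pass with the second unnumbered library there (0.504) or without blocks (0.996). In the check of pairing, same-numbered LPS libraries correlated at 0.34, 0.66 and 0.54 under the first placement and at -0.23, -0.22 and 0.54 under the second. That check used the same values as the test and is not separate evidence for the first placement.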

How the results depend on the processing

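Counts of genes at an adjusted p under 0.05 depended on the block. In IL7 the limma count was 0 without the block, and DESeq2 without it gave 309. With the replicate block the count was 1476 in limma and 1424 in edgeR. Leaving out a library without the block gave 0 to 1, and leaving out a pair with the block gave 774 to 1425. In LPS the limma count was 0 without the block. The replicate block that places the first unnumbered library with WT replicate 1 gave 4 in limma and 39 in edgeR. DESeq2 gave 1, and limma with sex as a covariate gave 1. Leaving out a library without the block gave 0 to 4 in LPS. Leaving out a pair with the block gave 45 to 383 under that placement and 4 to 7 under the other. The difference between cultures gave 0, but 441 with the replicate block and the first assignment, and 0 to 1 leaving out a library. TMM scaling moved the mean Cdkn2c level in IL7 T58A from 52.8 to 52.0 RPM, beyond its SD. Signs turned with sex as a covariate for E2f3 in IL7 (-0.032) and, in LPS, for Cdkn1b (0.22) and Cdkn2a (-0.11). Leaving out a library or pair turned the sign of differences that did not pass. In IL7 Cdkn1a ranged from -0.35 to 0.21 and Cdkn2a from -0.79 to 0.081. In LPS the ranges were -0.12 to 0.28 for Cdkn1a, -0.24 to 0.12 for Cdkn1b, -0.41 to 0.41 for Cdkn2a, -0.067 to 0.44 for Cdkn2b and -0.15 to 0.50 for Cdkn2d. The difference between cultures ranged from -0.11 to 0.45 for Cdkn1a and from -0.013 to 0.86 for Cdkn2a. The cause was not tested. The replicate block changed the call of no member in IL7 other than Cdkn1b and Cdkn2c. Cdkn1b, Cdkn2c and Cdkn2d stayed below 0 in IL7 under all 18 alternatives. So did Cdkn1c (-0.92 to -0.23), whose genotypes overlapped and which passed in none. With 3 libraries a group and 1 male WT library a culture, genotype and sex are poorly separated, and counts under about 10 reads limit Cdkn2b in IL7 and Cdkn1c in LPS.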
